A study of Mus musculus with 16 samples.

Results

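Sgk1, Ssh2 and Pds5a are the 3 mouse genes whose introns held the strongest LSD1 ChIP-seq peaks of vehicle-treated CD8+ T cells that had no counterpart in cells given an LSD1 inhibitor. The genes were chosen by the LSD1 peaks themselves. Among Veh LSD1 peaks lacking a GSK LSD1 peak within 1 kb, those in Ssh2, Sgk1 and Pds5a had the highest significance of enrichment (−log10 p). These 3 peaks are called index sites here, and their LSD1 values are a description of that choice, not a result. The 3 genes are 3 of 20923 protein-coding RefSeq genes with a curated transcription start site (TSS). All peaks of the 12 deposited lists that overlapped a gene body extended by 50 kb on each side were collected. This gave 164 of 214352 peaks, over windows of 218 kb for Sgk1, 344 kb for Ssh2 and 193 kb for Pds5a.

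The cells were splenic CD8+ T cells of OT1 mice, which carry a transgenic T-cell receptor for an ovalbumin peptide. They were activated for 48 h with plate-bound anti-CD3 at 2 μg/ml and anti-CD28 at 2 μg/ml in the presence of IL-2 at 20 ng/ml, and were then expanded with IL-2 for 3 days. Cells received either 0.5 μM GSK2879552 (GSK), a covalent inhibitor of LSD1, throughout the culture or vehicle (Veh). Both were activated alike and no resting cells were compared. For each treatment there was 1 ChIP-seq library for each of RNA polymerase II (Pol II), LSD1, H3K27ac and the 3 methylation states of H3K4, so no difference below could be set against a spread between replicates and no test was made. The 4 input samples carry no peak list and were not analysed here. A list holds only peaks past the authors' threshold, so a missing peak means that none was called, not that no protein or mark was there. Fold enrichment (fold) is the ratio of ChIP signal to local background at a peak, and the number of reads behind it is unknown from the lists. Values of Veh and GSK are therefore set side by side as they were deposited.

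LSD1, the product of Kdm1a, is a demethylase that removes methyl groups from mono- and dimethylated H3K4 (H3K4me1 and H3K4me2) and acts at enhancers and promoters in corepressor complexes. H3K4me1 is widespread at enhancers, H3K4me3 marks promoters, and H3K27ac and Pol II accompany active elements of either kind. Sgk1 encodes serum- and glucocorticoid-regulated kinase, an AGC kinase that is switched on downstream of PI3K and mTORC2 and phosphorylates FOXO transcription factors and the ubiquitin ligase NEDD4L. Ssh2 encodes a slingshot phosphatase, which dephosphorylates the actin-severing protein cofilin. Pds5a encodes a cohesin-associated protein that binds the ring together with the release factor WAPL.

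The DNA under the 3 index summits is shown because these are the sites on which the choice of genes rests. The peaks at 2 further sites of the windows are shown for comparison, since they were the strongest Veh LSD1 peaks there that did have a GSK counterpart. Each sequence is 300 bases of the mm10 plus strand, with the summit as base 151, and capitals mark every match to the 12 short motifs listed below.
Sgk1 index site, chr10:21975421-21975720: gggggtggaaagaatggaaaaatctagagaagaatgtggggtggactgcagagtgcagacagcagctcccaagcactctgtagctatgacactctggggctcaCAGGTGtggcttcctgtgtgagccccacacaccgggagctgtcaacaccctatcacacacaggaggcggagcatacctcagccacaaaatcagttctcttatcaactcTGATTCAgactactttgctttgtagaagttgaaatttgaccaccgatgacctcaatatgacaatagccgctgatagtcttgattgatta
Ssh2 index site, chr11:77386427-77386726: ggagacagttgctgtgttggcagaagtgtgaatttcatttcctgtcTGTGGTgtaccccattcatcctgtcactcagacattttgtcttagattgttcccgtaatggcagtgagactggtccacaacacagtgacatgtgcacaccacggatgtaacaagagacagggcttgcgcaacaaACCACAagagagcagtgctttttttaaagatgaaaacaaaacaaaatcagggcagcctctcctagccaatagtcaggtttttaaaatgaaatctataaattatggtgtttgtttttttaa
Pds5a index site, chr5:65653838-65654137: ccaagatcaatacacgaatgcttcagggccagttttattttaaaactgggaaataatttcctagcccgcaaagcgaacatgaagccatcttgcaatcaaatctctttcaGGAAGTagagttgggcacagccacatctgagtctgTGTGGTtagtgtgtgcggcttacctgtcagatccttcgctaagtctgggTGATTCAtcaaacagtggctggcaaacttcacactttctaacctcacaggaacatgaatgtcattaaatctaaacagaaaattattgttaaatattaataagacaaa
Ssh2 upstream site, chr11:77208037-77208336: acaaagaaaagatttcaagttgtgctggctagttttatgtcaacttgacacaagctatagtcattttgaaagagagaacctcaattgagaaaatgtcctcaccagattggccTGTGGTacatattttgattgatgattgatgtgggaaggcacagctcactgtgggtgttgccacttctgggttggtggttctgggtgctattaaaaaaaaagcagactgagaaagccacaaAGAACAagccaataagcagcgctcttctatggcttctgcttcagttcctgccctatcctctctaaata
Sgk1 downstream site, chr10:21982443-21982742: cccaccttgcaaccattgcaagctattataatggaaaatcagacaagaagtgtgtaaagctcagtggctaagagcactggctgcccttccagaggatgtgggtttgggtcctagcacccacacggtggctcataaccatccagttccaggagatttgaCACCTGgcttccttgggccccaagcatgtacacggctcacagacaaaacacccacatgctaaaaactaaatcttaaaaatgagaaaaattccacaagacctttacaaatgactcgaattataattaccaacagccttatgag

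Motifs were searched on both strands. For ETS factors the letters were GGAAGT, for RUNX factors TGTGGT, for AP-1 TGANTCA, for T-box factors GGTGTGA, for GFI1 AATCACNGC and for TCF/LEF factors CTTTGAT. For STAT factors they were TTCNNNGAA, for GATA factors AGATAA, for IRF factors GAAANNGAA, for ZEB factors CAGGTG, for SP factors GGGCGG and for the glucocorticoid receptor AGAACA. No motif was in all 3 index windows. The Pds5a window held 3 of the 12 motifs, namely ETS, RUNX and AP-1, with the RUNX letters ending 1 base before the summit base. The Sgk1 window held an AP-1 and a ZEB match, and the Ssh2 window held the RUNX letters in 2 places, once on each strand. Over all 21252 Veh LSD1 summits the median window held 2 of the motifs. The RUNX letters were in 29.6% of these windows, ETS in 25.1%, ZEB in 23.9% and AP-1 in 12.1%. Both the Ssh2 upstream window and the Ssh2 index window held the RUNX letters, and both Sgk1 windows held the ZEB letters. No 2 matches overlapped within a window. The letters for GFI1, a factor that recruits LSD1 in blood cells, were in none of the 5 windows and in 1.05% of all Veh LSD1 windows. A match is a description of these letters and not evidence of binding.

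The index windows held less G and C than most LSD1 summits. G and C made up 48.7% of the Sgk1 index window, 41.3% of the Ssh2 window and 40.0% of the Pds5a window, against a median of 53.3% over all Veh LSD1 summits and 47.7% over intronic summits with no GSK peak. The 3 windows held 4, 3 and 5 CpG dinucleotides respectively, against a median of 7 over all summits and 3 over the intronic ones with no GSK peak. The Ssh2 upstream window differed from the index sites in being almost all repeat sequence, with 88.7% of its bases masked in the reference, more than in 96.3% of all Veh LSD1 windows. At the Sgk1 downstream window 53.7% of bases were masked, and at the 3 index windows between 6.33% and 28.3%.

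In Veh cells the Ssh2 index peak (chr11:77386365-77386815, summit 77386577) reached a −log10 p of 60.7 at a fold of 13.6, which ranked it 82 of 21252 LSD1 peaks. The Sgk1 index peak (chr10:21975416-21976616, summit 21975571) reached 52.9 at a fold of 10.5, rank 118. The Pds5a index peak (chr5:65653764-65654340, summit 65653988) reached 51.0 at a fold of 14.1, rank 126. All 3 stood far above the list's median fold of 4.20. The Sgk1 peak was the widest, at 1201 bp against 451 bp in Ssh2 and 577 bp in Pds5a.

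The strongest LSD1 peaks of Veh cells nearly always had a GSK peak beside them. Of the 126 Veh peaks at least as significant as that in Pds5a, 123 had a GSK LSD1 peak within 1 kb. The remaining 3 are the index sites, which follows from the choice because the cutoff is the −log10 p of the Pds5a site. The next peak outside this choice lay in intron 1 of Lysmd1, a gene for a LysM-domain protein (chr3:95135699-95136206, fold 12.1, −log10 p 50.5). It was followed by intergenic peaks whose nearest curated TSS was that of Trpm6 (fold 11.3, −log10 p 50.3), 8430436N08Rik (fold 13.8, −log10 p 49.0) and Gm7607 (fold 13.3, −log10 p 45.6). The eighth lay in intron 1 of Pde6d, which encodes a prenyl-binding protein (fold 11.7, −log10 p 45.5), and had a GSK peak only 1288 bp away. The nearest GSK LSD1 peak was 5848 bp from the Sgk1 site, 37925 bp from the Ssh2 site and 34781 bp from the Pds5a site. Ranked by fold in place of −log10 p, the Pds5a site was number 1 of 8886, the Ssh2 site number 3 and the Sgk1 site number 20.

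All 3 index sites lay inside introns, which was part of the choice of the genes, and each was more than 1 kb from a TSS. The Sgk1 summit was in intron 3 of the longest Sgk1 transcript, 93.4 kb downstream of the TSS of that transcript but 3.10 kb upstream of the next of the 6 curated Sgk1 start sites. The 2 start sites that share the highest Pol II peak lay 18.3 and 19.1 kb downstream of the summit. The Ssh2 summit was in intron 2 of the long transcript, a stretch of 65553 bp, and in intron 1 of the short transcript, 38.3 kb downstream of its TSS. The Pds5a summit was in intron 10, only 1471 bp long, at 17 bp from exon 10, and the peak reached into that exon. It lay 44.2 kb downstream of the only curated Pds5a TSS. Over the whole Veh list, 62.0% of 5528 intronic LSD1 peaks had no GSK peak within 1 kb, against 12.4% of 8434 peaks whose summit was within 1 kb of a TSS.

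**Figure D1:**
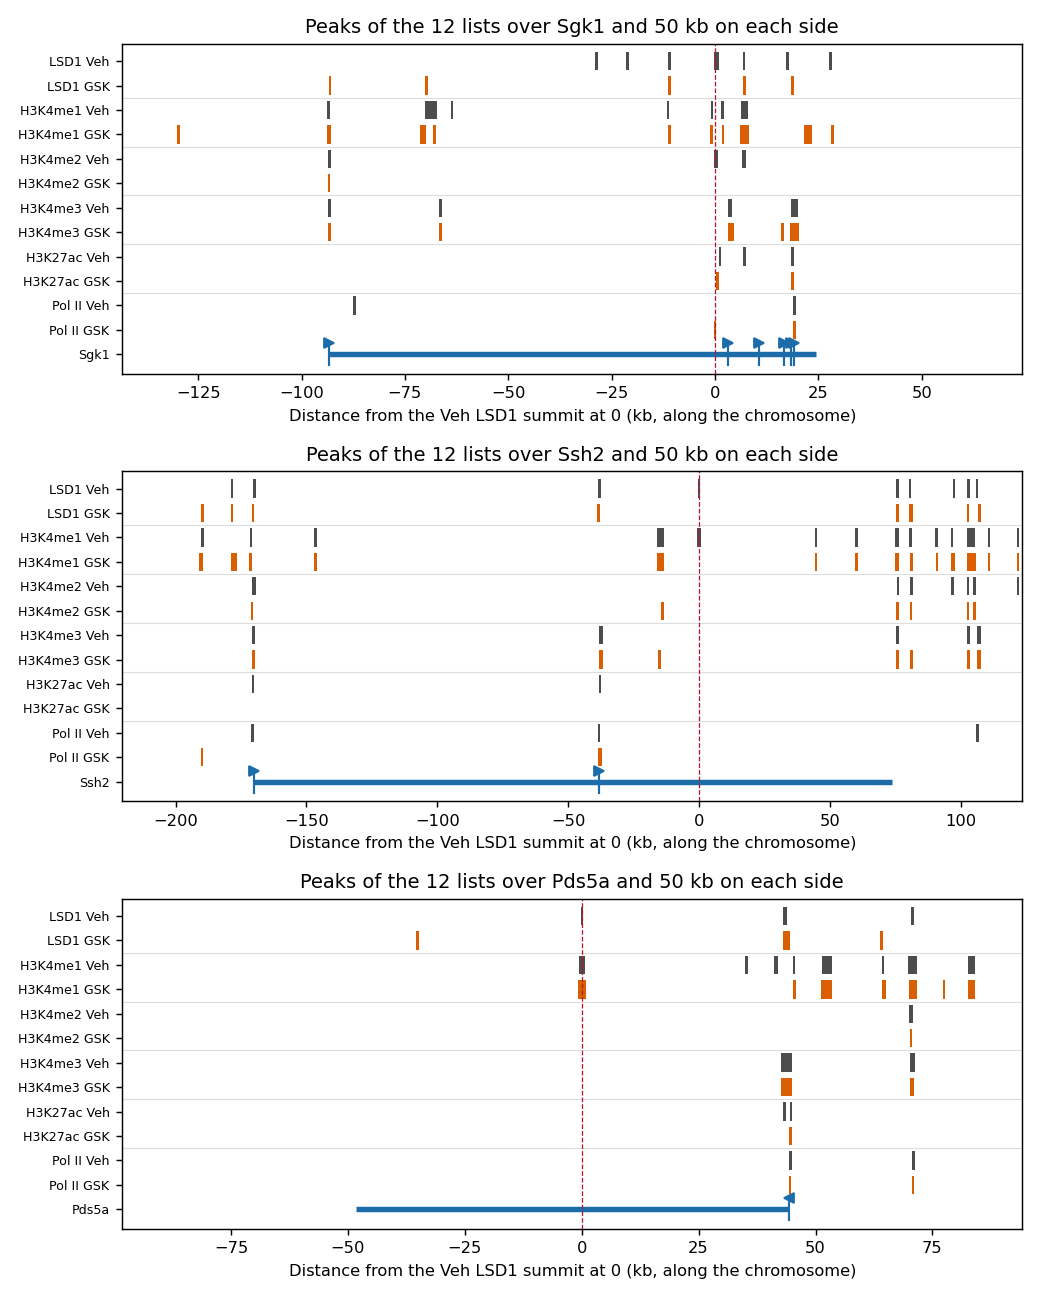
Peaks of the 12 lists (rows, Veh grey and GSK orange) over each gene extended by 50 kb, plotted as distance in kb from the summit of the index LSD1 peak at 0. The blue line is the gene, arrows are curated start sites, and narrow peaks are widened to stay visible. At 0 a grey LSD1 bar stands in each panel with no orange bar under it.

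Sgk1 spans chr10:21882184-21999903 on the plus strand. Of the 3 windows it held the most LSD1 peaks of Veh cells with no GSK partner, 4 of 7, where 41.8% of all Veh LSD1 peaks had none. The 4 include the index site, which was chosen for lacking a partner. Besides the index site these were weak peaks in intron 2 at chr10:21946756-21947106 (fold 3.17) and chr10:21954262-21954619 (fold 3.53), and a stronger peak past the end of the gene at chr10:22003149-22003825 (fold 6.06, −log10 p 11.3). All 7 Veh LSD1 peaks, paired or not, lay from intron 2 to the region past the end of the gene.

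The other 3 Veh LSD1 peaks of the Sgk1 window had GSK partners, and the pairs differed in direction. At chr10:21982312-21982828, 7.02 kb downstream of the index summit, fold was 6.77 in Veh and 3.64 in GSK cells, a ratio of 0.538. Only 1.42% of the 12366 Veh LSD1 peaks with a GSK partner had a lower ratio. At chr10:21964360-21964721 in intron 2 the values went the other way, with a fold of 3.47 in Veh and 6.35 in GSK cells, a ratio of 1.83 that exceeded 97.9% of all such ratios. At the downstream start sites the Veh peak (chr10:21992972-21993283, fold 3.96) and the GSK peak (chr10:21994029-21994510, fold 3.86) did not overlap and counted as partners because they were 746 bp apart.

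GSK cells had 5 LSD1 peaks in the Sgk1 window, and 2 of them had no Veh peak within 1 kb, where 38.4% of all GSK LSD1 peaks had none. The stronger of these lay on the most upstream Sgk1 TSS, at chr10:21882109-21882718, at a fold of 5.88 (−log10 p 10.6), and the other in intron 1 at chr10:21905566-21905957 (fold 3.33). At that upstream TSS the histone marks were alike in both treatments. H3K4me3 fold was 8.14 in Veh and 8.73 in GSK cells, H3K4me2 fold was 5.80 and 5.43, and H3K4me1 fold was 3.87 and 4.56. No H3K27ac or Pol II peak was called within 1 kb of it in either treatment.

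**Figure D2:**
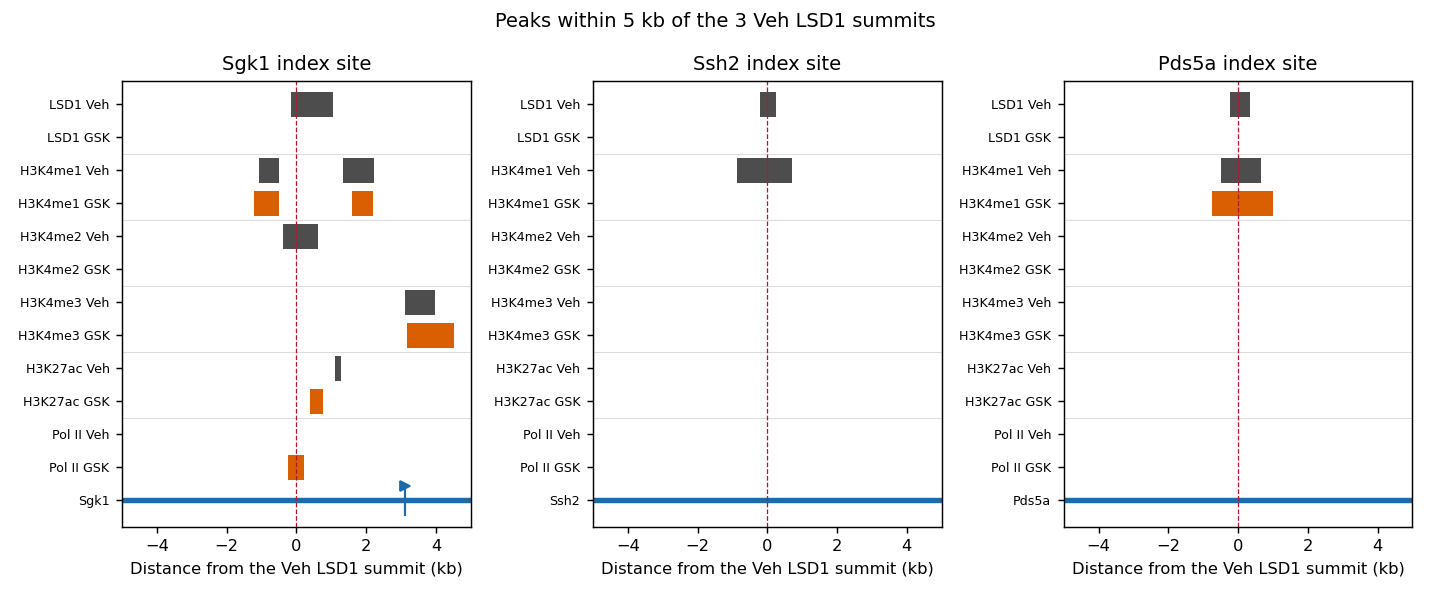
Peaks of the 12 lists within 5 kb of each index summit, as distance in kb, with peak widths to scale (Veh grey, GSK orange, arrow a curated start site). Around the Sgk1 summit a Veh H3K4me2 bar, a GSK H3K27ac bar and a GSK Pol II bar sit in the LSD1 peak between H3K4me1 bars of both treatments, while the Ssh2 and Pds5a summits carry H3K4me1 alone.

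At the Sgk1 index site the lists of the 2 treatments differed for 3 other antibodies. A Veh H3K4me2 peak (chr10:21975192-21976189, fold 3.69) covered the LSD1 summit, and the nearest GSK H3K4me2 peak was 81691 bp away, outside the window. This H3K4me2 peak was among the weaker of its list, at rank 13709 of 15219 by −log10 p, and was no longer there when the Veh list was shortened to the 9437 peaks of the GSK list. A GSK Pol II peak (chr10:21975339-21975792, fold 3.85, −log10 p 6.88) covered the same position with its summit 131 bp from the LSD1 summit, and the nearest Veh Pol II peak was 17886 bp away. Of all GSK Pol II peaks, 57.7% had no Veh Pol II peak within 1 kb. A GSK H3K27ac peak (chr10:21975948-21976323, fold 4.52) lay inside the LSD1 peak. The Veh H3K27ac peak (chr10:21976668-21976848, fold 3.24) started 52 bp beyond the LSD1 peak, so H3K27ac was present in both treatments within 1 kb but on the LSD1 peak in GSK cells alone.

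H3K4me1 lay on either side of the Sgk1 index site and not on it, in both treatments. Upstream of it the Veh peak was chr10:21974508-21975068 (fold 2.48) and the GSK peak chr10:21974354-21975058 (fold 2.86). Downstream of it the Veh peak was chr10:21976892-21977796 (fold 2.87) and the GSK peak chr10:21977163-21977777 (fold 2.42). The Veh H3K4me2 peak lay between the flanking peaks and covered part of the gap. At the nearest start site, 3.10 kb downstream of the summit, an H3K4me3 peak was called in both treatments, with a fold of 3.22 in Veh and 3.52 in GSK cells.

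The Sgk1 site with the lower LSD1 fold in GSK cells, at chr10:21982312-21982828, also carried marks in Veh cells that had no GSK peak. These were H3K4me2 (chr10:21982155-21983122, fold 4.88) and H3K27ac (chr10:21982248-21982984, fold 3.44, rank 5498 of 7410), while H3K4me1 was called over it in both treatments (fold 3.06 in Veh and 2.42 in GSK cells). At the unpaired LSD1 peak past the end of the gene the order was reversed. No mark was called there in Veh cells, and GSK cells had an H3K4me1 peak (chr10:22003505-22004275, fold 4.44). A further GSK H3K4me1 peak covered the downstream part of Sgk1 (chr10:21997090-21999023, fold 3.41), and another lay upstream of the gene (chr10:21845594-21845929, fold 4.31). In Veh cells an H3K4me1 peak in intron 1 had no GSK partner (chr10:21911736-21912139, fold 3.76).

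Pol II and H3K27ac were called at 1 promoter region of Sgk1, around its start sites at 21993890 and 21994666. There Pol II fold was 11.3 in Veh (chr10:21994502-21994937) and 9.11 in GSK cells (chr10:21994345-21995078), above 98.4% of all peaks in both lists. The same region carried H3K27ac, with a fold of 4.21 in Veh and 4.71 in GSK cells, and H3K4me3, with a fold of 4.71 and 3.79. H3K4me3 fold was higher at the most upstream TSS, at 8.14 and 8.73. Its −log10 p was lower there, at 36.6 and 42.0 against 97.0 and 79.3. The H3K4me3 peak was 1711 bp wide in Veh cells and 2229 bp in GSK cells. Both start sites lay within 1 kb of these peaks and could not be told apart. The TSS at 21986104 had no peak of any list within 1 kb, and that at 21992223 had the Veh LSD1 peak named above and a GSK H3K4me3 peak with a fold of 1.69.

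**Figure D3:**
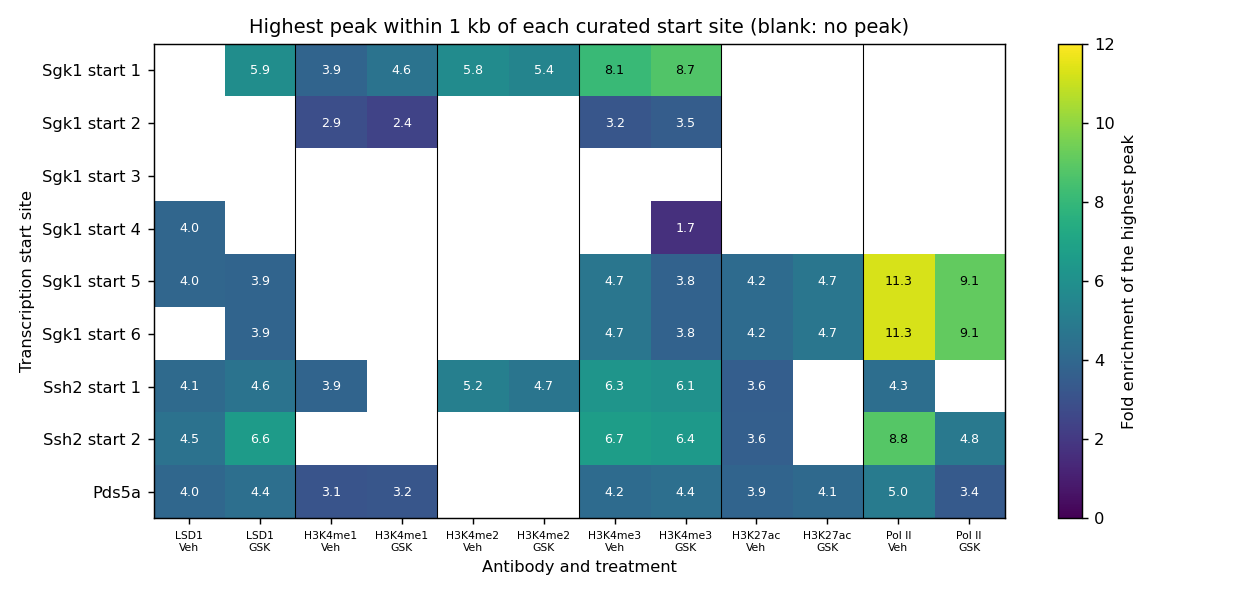
Fold enrichment of the highest peak within 1 kb of each of the 9 curated start sites (rows, numbered along the chromosome) for each antibody and treatment (columns). Blank cells had no peak. Sgk1 starts 5 and 6 hold the highest Pol II values, 11.3 in Veh and 9.11 in GSK cells, and the H3K27ac cells of both Ssh2 starts are filled in Veh cells and blank in GSK cells.

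Ssh2 spans chr11:77216157-77460220 on the plus strand. Its window held 9 LSD1 peaks in each treatment, and 7 of the 9 Veh peaks had a GSK partner. Apart from the index site, the Veh peak without a partner lay in intron 1 of the neighbouring gene Ankrd13b (chr11:77483784-77484252, fold 3.34). The largest difference in fold among pairs of all 3 windows was found upstream of Ssh2. At chr11:77207922-77208398, within predicted but no curated transcripts of Efcab5, LSD1 fold was 12.6 in Veh cells (−log10 p 40.8, rank 229) and 4.54 in GSK cells (−log10 p 7.03). This ratio of 0.360 was lower than all but 0.105% of Veh LSD1 peaks with a partner. At Veh peaks with a fold of at least 10 the ratio was generally lower, with a median of 0.769 over 324 pairs. The repeat content of this site is given above, and its part in the result was not tested.

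The Ssh2 index site had H3K4me1 in Veh cells alone (chr11:77385719-77387281, fold 2.97, −log10 p 7.26). The nearest GSK H3K4me1 peak was 13235 bp from the LSD1 peak. Over the whole lists 11.4% of Veh H3K4me1 peaks had no GSK H3K4me1 peak within 1 kb, and the Ssh2 index site was the only such peak of 14 in the Ssh2 window. No H3K4me2, H3K4me3, H3K27ac or Pol II peak of either treatment overlapped the site, and the nearest of them was 13475 bp away. At the upstream site with the lower LSD1 fold in GSK cells the order of the mark was reversed, since H3K4me1 was called there in GSK cells alone (chr11:77207618-77209855, fold 3.82). Thus the strongest LSD1 sites of the Ssh2 window went with H3K4me1 lists that differed in opposite directions.

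Both Ssh2 promoters carried LSD1 and H3K4me3 in both treatments. At the upstream TSS, position 77216425, H3K4me3 fold was 6.27 in Veh and 6.06 in GSK cells, and LSD1 fold was 4.14 and 4.58. At the downstream TSS, position 77348280, H3K4me3 fold was 6.66 and 6.44, and LSD1 fold was 4.55 and 6.58. Pol II and H3K27ac were lower or not called in GSK cells. Pol II fold at the downstream TSS was 8.85 in Veh (chr11:77348165-77348490) and 4.83 in GSK cells (chr11:77348256-77348488). At the upstream TSS a Pol II peak was called in Veh cells alone (chr11:77215888-77216145, fold 4.32). H3K27ac was called at both start sites in Veh cells, with folds of 3.59 and 3.62, and at neither in GSK cells. These 2 peaks ranked 7098 and 5653 in the Veh list by −log10 p, below the length of the GSK list. The GSK H3K27ac list is much shorter than the Veh list, with 2751 against 7410 peaks, and 12.1% of 31647 curated promoters had H3K27ac in Veh cells alone against 0.335% in GSK cells alone. By the read numbers stated in the study, which were not used here, the GSK H3K27ac library was much shallower than the Veh library. Depth cannot be told apart from treatment in these H3K27ac lists.

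A region in intron 2 of Ssh2, upstream of the index site, had more marks in GSK cells. H3K4me1 was called over it in both treatments (chr11:77370589-77373191 with a fold of 3.21 in Veh and chr11:77370532-77373130 with a fold of 2.92 in GSK cells). Within it GSK cells had an H3K4me2 peak (chr11:77372592-77372890, fold 4.24) and a small H3K4me3 peak (chr11:77371303-77371587, fold 3.83), neither of which had a Veh peak within 1 kb. No LSD1 peak was called there in either treatment.

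Among the neighbours of Ssh2, the promoters of Coro6, Mir12181, Ankrd13b and Git1 carried peaks. Coro6 encodes a coronin, a family of actin-binding proteins. LSD1 was called at its TSS in both treatments with folds of 3.67 and 3.96, and H3K4me3 with folds of 8.01 and 8.15. Near the microRNA gene Mir12181 LSD1 fold was 4.47 in Veh and 6.45 in GSK cells, and H3K4me3 was called in GSK cells alone with a fold of 4.12. At Ankrd13b LSD1 fold was 3.09 and 3.29 and H3K4me3 fold 2.21 and 2.42. At Git1, which encodes a scaffold protein that acts on ARF GTPases, H3K4me3 fold was 4.53 and 3.65 and Pol II was called in Veh cells alone with a fold of 3.16. All these neighbours kept an LSD1 peak within 1 kb of a TSS in both treatments.

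Pds5a spans chr5:65605719-65698236 on the minus strand. Its window held 3 LSD1 peaks in each treatment, of which a single pair was shared, at the promoter (chr5:65697008-65697860 with a fold of 3.99 in Veh and chr5:65697023-65698569 with a fold of 4.38 in GSK cells). The index site had H3K4me1 over it in both treatments. The Veh peak (chr5:65653490-65654635) had a fold of 4.93 and the GSK peak (chr5:65653250-65654978) a fold of 4.50, so both covered the whole LSD1 peak, and the GSK peak was wider, at 1729 bp against 1146 bp. No other mark or Pol II was called at the site, and the nearest was the H3K4me3 peak of the promoter.

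The other Veh LSD1 peak of the Pds5a window without a GSK partner lay upstream of the gene, between genes, at chr5:65724466-65724945 (fold 4.33). It had the fullest set of marks of any unpaired Veh LSD1 peak in the 3 windows, and all of them were called in both treatments. H3K4me1 fold was 3.81 in Veh and 3.79 in GSK cells, H3K4me2 fold 4.88 and 6.52, H3K4me3 fold 5.76 and 6.20, and Pol II fold 2.90 and 3.41. GSK LSD1 peaks without a Veh partner were called in the last part of the gene (chr5:65618644-65618983, exon 31, fold 3.66) and upstream of it (chr5:65717940-65718303, fold 4.88).

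At the Pds5a promoter all lists but H3K4me2 held a peak in both treatments. H3K4me3 fold was 4.21 in Veh and 4.36 in GSK cells, and H3K27ac fold was 3.88 and 4.12. Pol II fold was 4.98 in Veh (chr5:65698445-65698898) and 3.41 in GSK cells (chr5:65698370-65698667). Pol II fold was thus lower in GSK cells at the most strongly occupied promoter of each of the 3 genes, with Veh and GSK values of 11.3 and 9.11 at Sgk1, 8.85 and 4.83 at Ssh2, and 4.98 and 3.41 at Pds5a. The median fold of all Pol II peaks was also lower in the GSK list, 3.46 against 3.89.

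**Figure D4:**
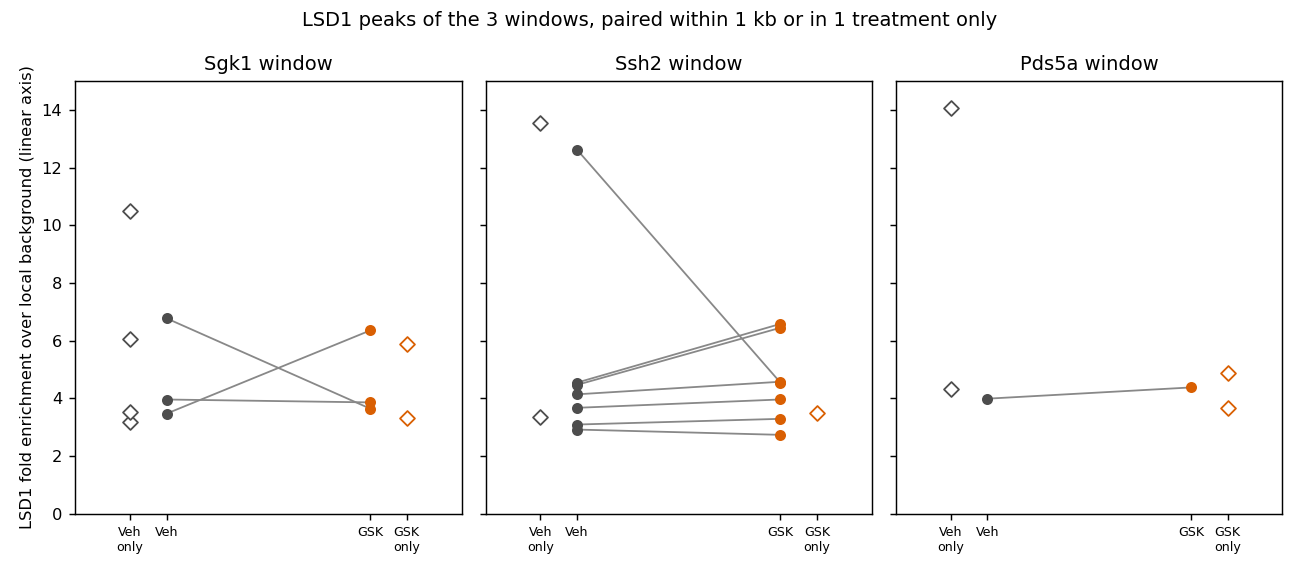
LSD1 fold enrichment (linear axis) of every LSD1 peak in the 3 windows. Filled circles joined by a line are Veh peaks and their nearest GSK peak within 1 kb, and open diamonds are peaks of 1 treatment with no such partner. The 3 highest diamonds are the index sites at 10.5, 13.6 and 14.1, and the steepest line falls from 12.6 to 4.54 upstream of Ssh2.

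Over the 3 windows together 8 of 19 Veh LSD1 peaks had no GSK partner and 5 of 17 GSK LSD1 peaks had no Veh partner, where 41.8% and 38.4% of the whole lists had none. The 8 include the 3 index sites, which were chosen for lacking a partner, so the Veh count is partly fixed by the choice. The 8 unpaired Veh peaks lay in introns (6) or between genes (2), and none was within 1 kb of a TSS, whereas 8 of the 11 paired peaks were. Of the 6 in introns, 3 are the index sites, whose place in an intron was part of the choice and is not a result. Paired peaks had folds from 2.92 to 12.6 with a median of 3.99, and the 5 unpaired Veh peaks other than the index sites had folds from 3.17 to 6.06 with a median of 3.53. H3K4me1 was called over 4 of the 8 unpaired Veh peaks in Veh cells and over 4 in GSK cells. In 3 of them it was called in both treatments, in Veh cells alone at the Ssh2 index site and in GSK cells alone past the end of Sgk1. H3K4me2 was called over 3 of the 8 in Veh cells and 1 in GSK cells. Over all 7842 unpaired Veh LSD1 peaks farther than 1 kb from a TSS, H3K4me1 was called in 38.1% in Veh and 40.7% in GSK cells, and H3K4me2 in 9.74% and 4.07%.

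For the other lists the counts of the 3 windows were small. H3K4me1 had 29 Veh and 31 GSK peaks, of which 4 and 5 had no partner within 1 kb, against 11.4% and 24.1% of the whole lists. With lists of equal length the H3K4me1 counts were 29 and 27. H3K4me2 had 11 Veh and 8 GSK peaks, of which 4 and 1 had no partner, against 44.0% and 9.77% of the whole lists. H3K4me3 had 11 Veh peaks, all with a partner, and 14 GSK peaks, 3 without, against 2.55% and 8.73%. H3K27ac had 7 Veh peaks, 3 without a partner, and 3 GSK peaks, all paired, against 64.2% and 4.43%, and with lists of equal length the counts were 2 and 3. Pol II had 7 peaks in each treatment, 3 without a partner in Veh and 2 in GSK cells, against 57.5% and 57.7%. H3K4me2 peaks covered 8.90 kb in Veh and 4.09 kb in GSK cells, and H3K4me1 peaks 31.3 kb and 37.0 kb. Over the whole genome the same lists covered 12.04 and 6.50 Mb for H3K4me2 and 34.1 and 41.2 Mb for H3K4me1. By the read numbers stated in the study, which were not used here, the GSK library was shallower than the Veh library for H3K4me2. For H3K4me1 it was deeper, so depth cannot be told apart from treatment in these coverages either.

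The states of the index sites were set beside those of all intronic Veh LSD1 peaks, 3430 without and 2098 with a GSK partner. The Wilson 95% intervals cover counting error only. Peaks without a partner carried fewer marks, and they were also weaker, with a median fold of 3.84 against 4.84. Veh H3K4me1 overlapped 41.3% of them (interval 39.7 to 43.0%) and 62.4% of those with a partner (60.3 to 64.4%). Among the 50 most significant peaks without a partner, the index sites included, the share was 62.0% (48.2 to 74.1%). These 50 were taken at any position, with 18 in introns, 30 between genes and 2 at promoters.

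H3K4me1 in both treatments with nothing else, as at the Pds5a index site, was found at 913 of the 3430 intronic peaks without a partner (26.6%, interval 25.2 to 28.1%). H3K4me1 in Veh cells alone with nothing else, as at the Ssh2 index site, was found at 98 (2.86%, 2.35 to 3.47%). The combination at the Sgk1 index site was found there and at no other of the 21252 Veh LSD1 peaks, but it was read off that site and joins 5 antibodies, so its rarity is a description. Taken singly, H3K4me2 in Veh cells alone was found at 243 of the 3430 peaks (7.08%), Pol II in GSK cells alone at 42 (1.22%) and H3K27ac in GSK cells alone at 3 (0.0875%). H3K27ac and Pol II both in GSK cells alone were found at 2 of the 3430. With peaks counted within 1 kb of the site, H3K27ac at Sgk1 would count as present in both treatments.

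**Figure D5:**
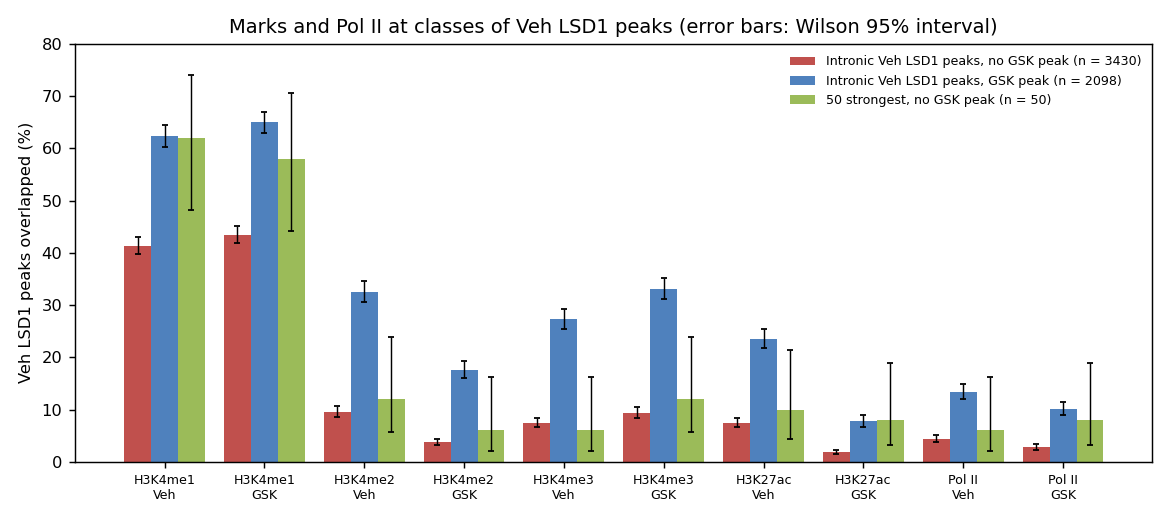
Share of Veh LSD1 peaks (%) overlapped by at least 1 bp of a peak of each histone mark or Pol II list, for intronic peaks without (red) and with (blue) a GSK LSD1 peak within 1 kb and for the 50 most significant peaks without one (green, all positions). Error bars are Wilson 95% intervals for counting error. Veh H3K4me1 overlaps 41.3%, 62.4% and 62.0% of the 3 classes.

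Genes that act with the 3 members were followed in 3 lists. Of 20 genes linked to PI3K, mTORC2, SGK kinases or the glucocorticoid receptor, 17 held a Veh LSD1 peak in the gene body (85.0%). At least 1 peak with no GSK partner was held by 12 of them (60.0%). Over all 20923 protein-coding genes the shares were 42.1% and 16.1%. The share of peaks without a partner was 18 of 42 (42.9%), against 34.6% of 13060 Veh LSD1 peaks counted over all protein-coding gene bodies. These genes are long, with a median of 89.7 kb against 17.8 kb for all genes. The strongest unpaired peaks lay in Prr5l (fold 6.60, −log10 p 13.9) and Prr5 (fold 4.63, −log10 p 10.9), which encode alternative subunits of mTORC2, and in the kinase gene Akt2 (fold 5.34, −log10 p 10.7). Sgk3, a paralogue of Sgk1, had 4 Veh LSD1 peaks and all 4 had a partner. No LSD1 peak was called in the body of Sgk2 in either treatment.

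Of 14 genes that encode cofilin family proteins or control their phosphorylation, 7 held a Veh LSD1 peak, and 1 of their 8 peaks had no partner. It lay in Rock1, a kinase gene upstream of LIM kinases (fold 4.12). The slingshot paralogues Ssh1 and Ssh3 each held 1 Veh peak, both with a partner. Of 14 genes of cohesin and its partners, Ctcf included, 8 held a Veh LSD1 peak and 3 of their 9 peaks had no partner. These lay in Esco2, which encodes a cohesin acetyltransferase (fold 4.29), and in the genes of the cohesin subunits Stag1 (fold 3.88) and Stag2 (fold 3.29). Pds5b, the paralogue of Pds5a, held 1 Veh peak with a partner. In the cofilin list 50% of genes held a Veh LSD1 peak and 12.5% of the peaks had no partner. In the cohesin list the shares were 57.1% and 33.3%, against 42.1% and 34.6% over all protein-coding genes. The genes of both lists are long as well, with medians of 45.3 and 46.0 kb against 17.8 kb. LSD1 was called within 1 kb of a TSS of 14 of the 20, 9 of the 14 and 9 of the 14 genes in Veh cells, and of 18, 14 and 10 in GSK cells. Over all protein-coding genes the share was 41.1% in Veh and 47.1% in GSK cells.

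The label of the cells was checked against marker genes. H3K4me3 was called in both treatments at the promoters of 5 of 5 T-cell markers with a curated TSS (Cd8a, Cd8b1, Cd3e, Cd3d and Cd3g). Over all 20923 protein-coding genes it was called at 56.5% in Veh and 57.7% in GSK cells. No H3K4me3, H3K27ac or Pol II peak of either treatment lay at the promoters of Cd4, of 3 B-cell markers, of 3 myeloid markers or of 2 NK-cell markers. Among the 5 T-cell markers themselves, H3K27ac was called at 2 of 5 in Veh and 0 of 5 in GSK cells. Pol II was called at 2 and 4 of 5, against 33.2% and 28.2% of all protein-coding genes. The check therefore rests on H3K4me3. The 12 lists held between 2751 and 40272 peaks.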

How the data were processed

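The 12 deposited peak lists, 1 per antibody and treatment, were analysed. Per the labels and the methods of the study, the authors kept uniquely mapped reads (Bowtie2, mm10) without duplicates and ran MACS2 separately on every library, with input as control. The study also describes a random draw of equal read numbers for comparing signals. It does not say whether the peak lists rest on those reads. LSD1 and Pol II lists hold narrow peaks with summits, and histone lists hold broad regions. The authors deposited for each peak a fold enrichment (a ratio of ChIP signal to local background), −log10 p and −log10 q values, and a score that is a rounded multiple of −log10 p or −log10 q and was not used. The lowest −log10 p in the LSD1 and Pol II lists was 3.00 to 3.01, and the lowest −log10 q in the histone lists was 3.01 to 3.03. The lists hold 1 library per antibody and treatment and no read counts, so no test was made, and the p and q values are the authors' own per library.

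Coordinates are mm10, counted from 1. All peaks ended within the chromosomes of GRCm38.p6, whose RefSeq annotation gave gene bodies, introns and 31647 pairs of gene and curated TSS. A peak had a partner when a peak of the other treatment lay within 1 kb, overlap meant 1 bp, and promoters were 1 kb on either side of a TSS. Sequences are those of the RefSeq GRCm38.p6 genome, 300 bases at each summit. The overlap and motif searches were tested on simulated regions with known answers. Python 3.11, pandas and scipy were used.

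The members and the gene lists were chosen with earlier results of these data known. Named genes were the 3 members, other genes of the windows with a promoter peak, genes at the unpaired Veh LSD1 peaks ranked 4 to 8, and up to 3 genes a list with the strongest unpaired peak. Alternatives varied the partner distance, the window, list lengths, thresholds, the ranking and the motif window.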

Additional observations from a re-analysis of the deposited data

How the results depend on the processing

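The 3 index sites had no GSK LSD1 peak within 1 kb by choice. At the longest partner distance tried, 5 kb, they had none either, and the nearest to the Sgk1 site was 5848 bp away. The count of 8 unpaired Veh LSD1 peaks, the 3 index sites included, was 5 in the gene bodies alone. It was 5 with a −log10 p of at least 5 in both lists, and between 7 and 11 under the 4 other settings. The count of 5 unpaired GSK LSD1 peaks was 9 when partners had to overlap, 3 in the gene bodies alone, 8 with 100 kb added on each side and 3 at a −log10 p of at least 5. With a −log10 p of at least 10 in both lists the windows held 8 Veh and 12 GSK H3K4me1 peaks, 4 and 1 H3K4me2 peaks, 2 and 0 H3K27ac peaks, and 3 and 2 Pol II peaks. With lists of equal length the Veh and GSK counts were 2 and 3 for H3K27ac and 29 and 27 for H3K4me1, so both orders turned, and 8 and 8 for H3K4me2 and 11 and 11 for H3K4me3, so those differences were gone. At the Sgk1 index site 3 histone or Pol II lists had an overlapping peak and 6 had a peak within 1 kb. By fold in place of −log10 p the sites in Sgk1, Ssh2 and Pds5a ranked 20, 3 and 1. Within 50 bases of the Sgk1 summit 1 of its 2 motifs was left. Over all unpaired Veh LSD1 peaks farther than 1 kb from a TSS, a class added after the data were seen, Veh H3K4me1 overlapped 38.1%. In all, 21 of 44 alternatives moved a value, where a count had to change by more than a factor of 1.5. The other 23 include smaller changes, such as those of H3K4me2 and H3K4me3 with lists of equal length. No paired analysis was possible because each antibody and treatment had 1 library and no result comes from a test. The lists carry no read numbers, and those stated in the study were not used, so a missing peak may reflect depth. By the stated numbers the GSK library was slightly shallower than the Veh library for LSD1 and deeper for Pol II.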
